A study of Mus musculus with 6 samples.

Results

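The genes described here are 9 that mark mast cells, read in sciatic nerves of mice at postnatal day 14. They are the protease genes Cpa3, Cma1, Mcpt4, Tpsb2 and Tpsab1, the growth factor receptor gene Kit, the IgE receptor subunit genes Ms4a2 and Fcer1a, and Hdc, the enzyme of histamine synthesis. Every probe whose symbol in the platform annotation is one of these names was taken, which gave 17 of the 45281 probes on the array, and the 9 genes are among 19057 symbols there. Nerves of mice with a Dicer mutation and the P0-Cre transgene were read on 3 arrays, and those of control littermates on another 3. P0 is the main protein of peripheral myelin, so its promoter drives Cre recombinase chiefly in Schwann cells, the glia of peripheral nerve, and Dicer cuts microRNA precursors to their mature length. The genotype label of the mutants reads "P0 Cre Dicer F or N", the last part of which the sources used here leave unexplained, and no genotype beyond "control littermates" is given for the controls. Every sample is labelled with both sexes, and the sources used here say neither whether an array held 1 animal or a pool nor the strain. The labels and the extraction protocol name sciatic nerve tissue, while the design text names cultured cells as the source. The labels were followed here, and if the RNA came from cultured cells the values below would not describe cells of the nerve as it lies in the animal. The p-values rest on the spread between these 6 samples alone, and that spread may be technical.

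Mast cells are immune cells of connective tissue, and in peripheral nerve they lie in the sheaths and between the fibres. They store histamine, heparin and proteases in granules, and release them when the IgE receptor is cross-linked. Stem cell factor, the ligand of Kit, keeps them alive. The proteases of connective tissue mast cells are a carboxypeptidase (Cpa3), chymases (Cma1 and Mcpt4) and tryptases (Tpsb2 and Tpsab1).

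The deposited signals are normalized and follow a log2-like scale whose lowest value is 7.96, with a median of 8.24 over all probes. Whether the scale is plain log2 or a variance-stabilising transform is not settled by the sources used here, so changes are given as differences, mutant minus control, and a difference among dim probes may understate the log2 change. The 18420 brightest probes were tested with limma, with calls made where the adjusted p was under 0.05. Over the tested probes, arrays correlated at 0.992 to 0.995 among controls and at 0.912 to 0.942 between the groups. Among mutants, replicates 2 and 3 correlated at 0.993, while mutant replicate 1 stood apart, at 0.982 and 0.973 with the others. The brightest of 3 Dicer1 probes read 9.10 to 9.28 in mutants and 9.13 to 9.29 in controls and was not called, and the second fell by 0.20 (limma adjusted p = 0.0458). The position of these probes relative to the mutated stretch was not available, so they check no label.

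In the mutant nerves all 5 protease genes rose, and neither Kit nor Hdc was called. By its brightest probe Cpa3 rose by 1.04, Cma1 by 1.04, Tpsab1 by 1.02, Mcpt4 by 0.71 and Tpsb2 by 0.60. The call of Tpsab1 is lost with the replicate number as a block and rests on single arrays, as described below. Of the 17 probes, 10 were bright enough to be tested, and they cover 7 of the 9 genes. Of these 10 probes 8 were called higher and 0 lower. Over all tested probes 35.8% were called, 19.9% higher and 15.9% lower. With each gene represented by its brightest probe, 5 of the 7 tested genes were called higher, where 22.0% of all tested genes were. All mutant arrays lay above all control arrays in the same 8 probes, which was so for 28.3% of all tested probes. The called difference was at least 1, the 2-fold threshold of the study's design text, for 4 probes, and 2.05% of all tested probes passed that threshold upward. The control mean of each of the 10 tested probes was itself above the lowest mean that passed the brightness filter, 8.34, so none passed through the mutant arrays alone. The median difference of the 7 tested genes was 0.71, and that of all tested genes 0.01. The genes were chosen with earlier results of these data known, so these contrasts with all tested genes are descriptions. In whole nerve, more cells of a type and more RNA per cell cannot be told apart.

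**Figure D1:**
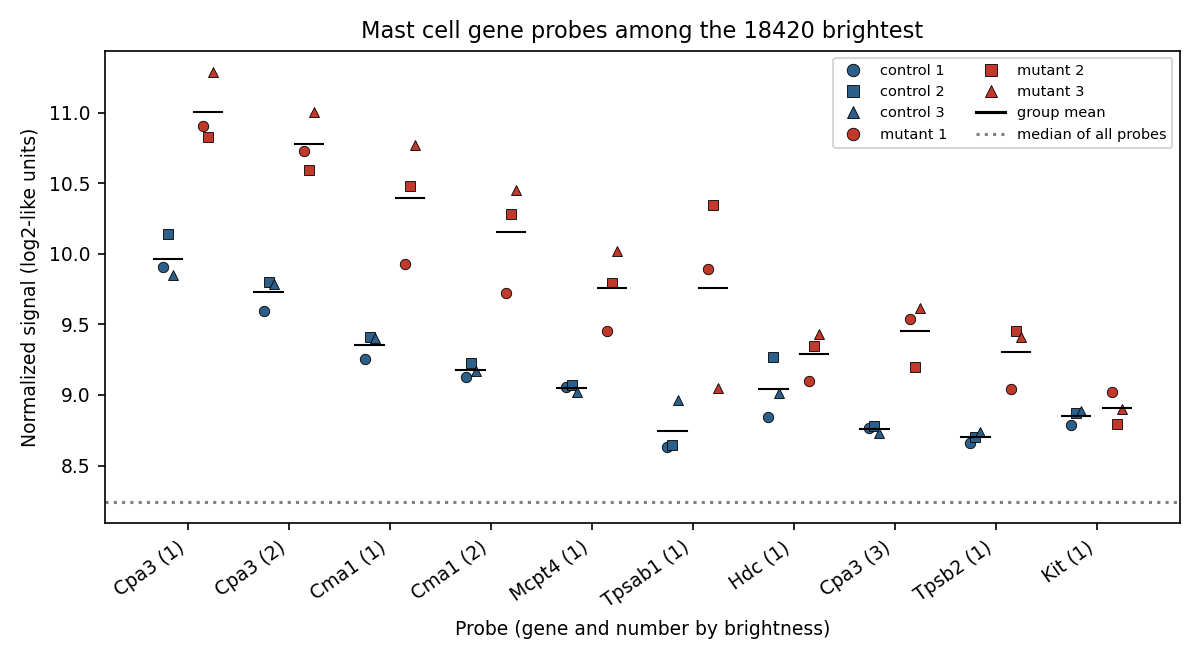
Normalized signal (log2-like units) of the 10 tested mast cell gene probes in the 3 control arrays (blue) and 3 mutant arrays (red), with symbols for replicate number, bars for group means and a dotted line at the median of all probes. The mutant arrays lie above the controls for every probe of Cpa3, Cma1, Mcpt4, Tpsab1 and Tpsb2 shown and overlap them for Hdc and Kit.

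**Figure D2:**
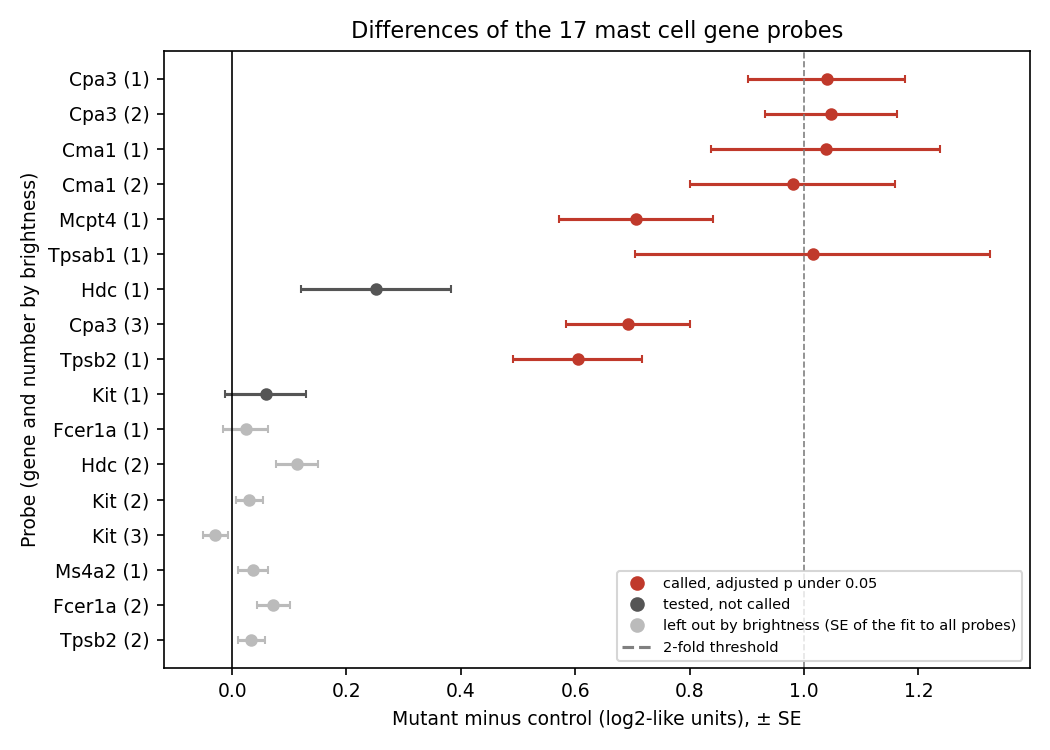
Mutant minus control difference (log2-like units) of all 17 mast cell gene probes, with the standard error as bars, in order of brightness. Called probes (red) lie between 0.60 and 1.05, and the 7 probes left out for brightness (light grey) between -0.03 and 0.11.

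The sequence upstream of the called genes is shown as a description, and its part in their rise was not tested. GATA factors, among them Gata2, and the E-box factor Mitf are known regulators of mast cell genes. RefSeq's table of promoters (GRCm38.p6, 250 bases before to 50 after each gene's start) held 7 of the 9 genes, and Tpsb2 and Tpsab1 were not matched. It was searched on both strands for the GATA words AGATAA and TGATAA, and for CACATG, an E-box bound by Mitf, which reads CATGTG on the opposite strand. Capitals mark the matches. The windows are chr3:20242132-20242431 for Cpa3, chr14:55944626-55944925 for Cma1 and chr14:56062261-56062560 for Mcpt4, all on the minus strand and printed 5′ to 3′ along the gene.
Cpa3: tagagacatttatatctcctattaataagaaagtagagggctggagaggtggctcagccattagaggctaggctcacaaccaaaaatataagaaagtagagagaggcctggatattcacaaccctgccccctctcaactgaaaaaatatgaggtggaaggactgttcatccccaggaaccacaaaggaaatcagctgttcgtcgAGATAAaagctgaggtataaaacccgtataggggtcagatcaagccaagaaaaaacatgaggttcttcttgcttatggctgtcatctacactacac
Cma1: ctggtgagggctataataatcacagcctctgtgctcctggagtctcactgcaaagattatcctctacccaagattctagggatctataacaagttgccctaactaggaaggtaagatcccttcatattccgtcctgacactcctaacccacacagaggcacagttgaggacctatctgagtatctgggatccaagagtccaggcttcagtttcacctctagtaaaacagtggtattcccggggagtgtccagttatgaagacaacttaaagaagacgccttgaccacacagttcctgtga
Mcpt4: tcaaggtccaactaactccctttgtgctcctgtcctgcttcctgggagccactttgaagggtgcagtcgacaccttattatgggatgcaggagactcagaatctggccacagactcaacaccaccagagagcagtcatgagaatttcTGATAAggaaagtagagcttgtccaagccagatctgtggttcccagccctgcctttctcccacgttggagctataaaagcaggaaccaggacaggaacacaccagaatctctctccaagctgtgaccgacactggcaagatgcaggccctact
The Cpa3 window held the word AGATAA, beginning 46 bases before the start, and the Mcpt4 window held TGATAA, beginning 103 bases before it. The Cma1 window held none of these words. The words AGATAG and TGATAG, which GATA factors also bind, were not searched for. The Cma1 window holds CTATCT, which is AGATAG on the opposite strand. Over all 32851 promoters in the table, 18.6% held a GATA word and 14.2% the E-box. Counted over the 27025 genes they belong to, these shares were 21.0% and 15.9%. Among the 7 genes of this set 4 held a searched GATA word, namely Cpa3, Mcpt4, Fcer1a and Ms4a2, and 1 held the E-box, Fcer1a. These matches are a description of the letters and show no binding.

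Cpa3, the carboxypeptidase stored with heparin in the granules, was read by 3 probes, and all 3 rose. The brightest read 9.91, 10.14 and 9.85 in control replicates 1 to 3 and 10.90, 10.83 and 11.29 in mutant replicates 1 to 3. The groups did not overlap, and the lowest mutant array stood 0.69 above the highest control. The difference was 1.04 (SE 0.137, limma adjusted p = 0.00159). The second probe read 9.73 ± 0.11 in controls and 10.78 ± 0.21 in mutants (SD, n = 3 each), which differ by 1.05 (SE 0.116, limma adjusted p = 7.66e-04). The third, dimmer probe read 8.76 ± 0.028 in controls and 9.45 ± 0.22 in mutants (SD, n = 3 each), a smaller difference of 0.69 (SE 0.109, limma adjusted p = 0.00336). Mutant replicate 3 was the highest array and mutant replicate 2 the lowest mutant array for each Cpa3 probe. The 3 calls were kept under all 13 alternatives, with a highest adjusted p of 0.0283. Under the filter at the 75th percentile of all values, 8.86, the third probe passed through the mutant arrays alone. Without mutant replicate 1 the differences were 1.09, 1.07 and 0.65, and without mutant replicate 3 they were 0.90, 0.93 and 0.61.

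Cma1, a chymase gene, was read by 2 probes, and both rose. The brighter read 9.25, 9.41 and 9.41 in control replicates 1 to 3 and 9.93, 10.48 and 10.77 in mutant replicates 1 to 3. Mutant replicate 1 was the lowest mutant array, and it still stood 0.52 above the highest control. The difference was 1.04 (SE 0.201, limma adjusted p = 0.00792). The dimmer probe read 9.17 ± 0.051 in controls and 10.15 ± 0.38 in mutants (SD, n = 3 each), a difference of 0.98 (SE 0.179, limma adjusted p = 0.00627). Without mutant replicate 1 the differences were 1.27 and 1.20, and without mutant replicate 3 they were 0.85 and 0.83. Without moderation of the variances the adjusted p of the brighter probe was 0.0524, and its call was lost.

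Mcpt4, the main chymase of connective tissue mast cells in the mouse, was read by 1 probe. It read 9.05, 9.07 and 9.02 in the controls, a narrow range, and 9.46, 9.79 and 10.02 in mutant replicates 1 to 3. As with Cma1, mutant replicate 1 was the lowest of the mutants and replicate 3 the highest. The difference was 0.71 (SE 0.135, limma adjusted p = 0.0075). Without mutant replicate 1 it was 0.86, and without mutant replicate 3 it was 0.57. Cma2, a neighbour of Cma1 on chromosome 14 in the RefSeq table and not one of the 9 genes, read 9.54 to 9.65 in controls and 9.91 to 10.70 in mutants. It rose by 0.74 (SE 0.184, limma adjusted p = 0.0209), a call lost under 6 of 13 alternatives, among them the tests of all probes (0.0629) and without mutant replicate 2 (0.0653) or any single control (0.0596 to 0.072). Chymase genes are close relatives, and how far these probes also detect one another's transcripts was not tested.

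Tpsb2, a tryptase that assembles with heparin in the granule, had 1 tested probe. It read 8.66, 8.70 and 8.74 in the controls and 9.04, 9.46 and 9.41 in mutant replicates 1 to 3, with no overlap. The difference was 0.60 (SE 0.113, limma adjusted p = 0.00681). Without mutant replicate 1 it was 0.74, and without mutant replicate 2 it was 0.53. A second Tpsb2 probe lay at the floor of the scale, with 8.02 to 8.05 in controls and 8.04 to 8.11 in mutants, and was not tested.

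Tpsab1, the other tryptase gene, had the widest spread of the 10 tested probes in the mutants. How far the Tpsab1 and Tpsb2 probes also detect one another's transcripts was not tested. The Tpsab1 probe read 8.63, 8.64 and 8.97 in control replicates 1 to 3 and 9.89, 10.35 and 9.05 in mutant replicates 1 to 3. Mutant replicate 3, the highest mutant array for Cpa3, Cma1 and Mcpt4, was the lowest for Tpsab1 and stood only 0.08 above control replicate 3. The difference was 1.02 (SE 0.311, limma adjusted p = 0.0432). The call was lost under 8 of 13 alternatives. With the replicate block the adjusted p was 0.0624, and with all probes tested it was 0.122. It was 0.0578 without mutant replicate 1, 0.0933 without mutant replicate 2, and 0.128, 0.125 and 0.0809 without control replicate 1, 2 or 3. It was 0.141 without moderation. Without mutant replicate 3 the difference was 1.37 (adjusted p = 0.00245). In RefSeq's annotation of the C57BL/6J genome Tpsab1 is listed as a transcribed pseudogene, since that strain carries a splice site change in it, while the other 8 genes are listed as protein coding.

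Hdc, which makes histamine from histidine, was read by 2 probes. The brighter read 8.84, 9.27 and 9.01 in control replicates 1 to 3 and 9.10, 9.35 and 9.43 in mutant replicates 1 to 3, so the groups overlapped. The difference was 0.25 (SE 0.131, limma adjusted p = 0.184), with a 95% interval from -0.06 to 0.57, and it was not called. Without mutant replicate 1 the difference was 0.35, with an adjusted p of 0.0512, and without control replicate 1 it was 0.15 (adjusted p = 0.45). The dimmer probe was left out by the brightness filter. It read 8.24 ± 0.058 in controls and 8.35 ± 0.036 in mutants (SD, n = 3 each), with all mutants above all controls.

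Kit, the receptor on which mast cells depend, was read by 3 probes, of which 1 was tested. It read 8.79, 8.87 and 8.89 in control replicates 1 to 3 and 9.02, 8.80 and 8.90 in mutant replicates 1 to 3, with overlapping groups. The difference was 0.06 (SE 0.071, limma adjusted p = 0.564) with a 95% interval from -0.11 to 0.23. That interval lies below the differences of the called proteases, and it does not show that Kit was equal in both groups. Without mutant replicate 1 the difference was 0.0031, and without mutant replicate 2 it was 0.11. The other Kit probes, annotated to cDNA clone sequences, read 8.12 to 8.24 in all arrays, near the median of all probes.

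The IgE receptor genes could not be read at a level above the bulk of the array. Ms4a2, the beta subunit, read 8.13 ± 0.034 in controls and 8.17 ± 0.028 in mutants (SD, n = 3 each). The brighter Fcer1a probe, for the alpha subunit that binds IgE, read 8.28 to 8.34 in controls and 8.26 to 8.38 in mutants, and the dimmer 8.05 to 8.14 and 8.14 to 8.18. The probe of Fcer1g, the gamma subunit that macrophages also carry, stood at 8.11 in controls and 8.10 in mutants. At such levels these probes give no sign of presence or absence. Of the 7 probes left out by the filter, 6 had a higher mean in mutants and 2 had groups that did not overlap, where 7.79% of all left-out probes had all mutants above all controls. When all 45281 probes were tested, of which 7.95% were called higher, limma called none of these 7 (adjusted p from 0.12 to 0.819), and the unadjusted p was under 0.05 for 2 of them. In the exact permutation test over arrays, 2-sided, which cannot go below 0.10 with 3 against 3 arrays, these 7 ran from p = 0.1 to 0.6.

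Within an array the proteases were set against Kit and Hdc. The brightest Cpa3 probe minus the Kit probe was 1.12, 1.27 and 0.96 in control replicates 1 to 3 and 1.89, 2.03 and 2.38 in mutant replicates 1 to 3, without overlap. Each of the other 4 proteases minus Kit also had all mutants above all controls, as did 18.1% of all tested probes minus Kit. Minus Hdc this held for Cpa3, Cma1, Mcpt4 and Tpsb2, while Tpsab1 minus Hdc overlapped, and it held for 5.02% of all tested probes minus Hdc. These pairs share the Kit and Hdc probes and the arrays behind the calls, so they are not independent of them. In all, 13 pairs were compared, and none can pass the threshold, since the exact permutation test gives at least 0.1 here (0.13 after Benjamini-Hochberg adjustment over the pairs, 2-sided). Cma1 minus Mcpt4 was 0.20 to 0.38 in controls and 0.47 to 0.76 in mutants, also without overlap. Cpa3 minus Cma1 had the same mean in both groups, 0.61, but ranged from 0.35 to 0.97 in mutants. Changes of dim probes may be understated on this scale, and the part of the scale in these pair differences was not tested.

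The proteases did not vary alike among the mutants. From the mutant mean, mutant replicate 1 deviated by -0.46 and -0.43 for the Cma1 probes, by -0.30 for Mcpt4 and by -0.26 for Tpsb2, whereas its Cpa3 probes deviated by -0.10, -0.05 and 0.09. Mutant replicate 2 was lowest for the 3 Cpa3 probes, at -0.18, -0.18 and -0.25. For Tpsab1 it deviated by 0.58 and mutant replicate 3 by -0.71. The spread was wider in mutants than in controls for 9 of the 10 tested probes, all but Hdc, where 65.6% of all tested probes had the wider spread in mutants. The median SD of the 10 probes was 0.24 in mutants and 0.072 in controls, against 0.094 and 0.065 for all tested probes. Mutant replicate 1 is also the array that stands apart over the tested probes of the array, and its part in this spread was not tested.

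**Figure D3:**
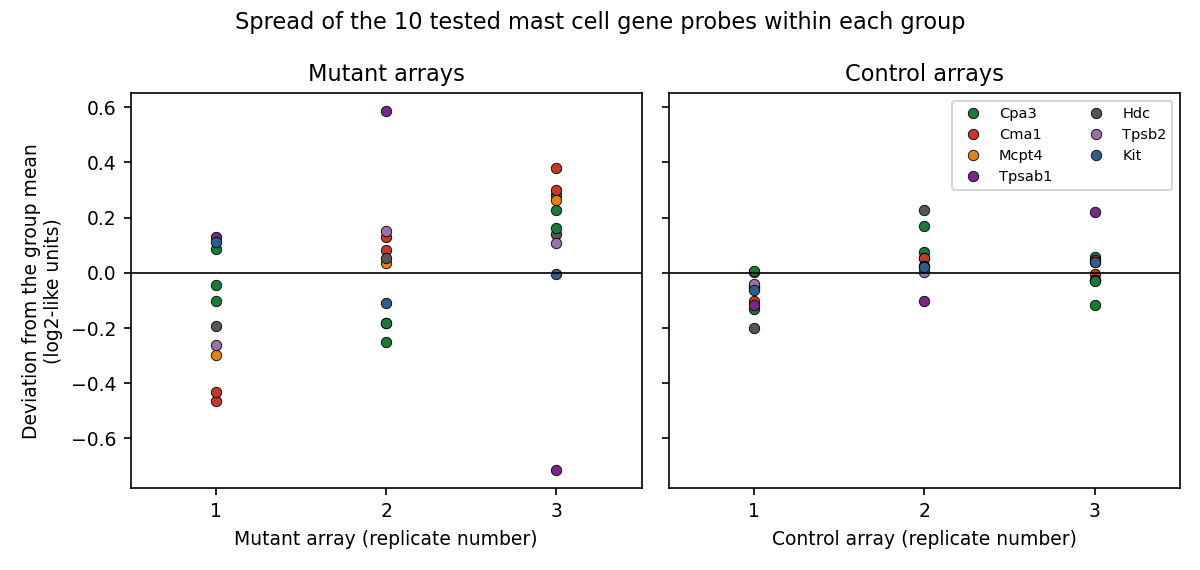
Deviation of each of the 10 tested probes from its own group mean (log2-like units) in the 3 mutant arrays (left) and 3 control arrays (right), coloured by gene. In mutants the Cma1, Mcpt4 and Tpsb2 probes are low in replicate 1, the Cpa3 probes are low in replicate 2, and Tpsab1 goes from 0.58 in replicate 2 to -0.71 in replicate 3.

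The genes whose values were most like those of the brightest Cpa3 probe over the 6 arrays were Nid1, Dpysl3, Rab3gap2, Rprd1b and Id2, each with a Pearson r of at least 0.994. Of the 15827 other named probes, 516 had an r above 0.95. After the group means were subtracted, the genes most like the mean of the tested Cpa3, Cma1, Mcpt4 and Tpsb2 probes were D030047H15Rik, Phrf1, Sppl3, Flad1 and Clrn1. None of these 10 genes is in a list of mast cell genes used here. These are descriptions over 6 arrays, without a test.

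Other genes of mast cell function were read from 10 lists with 140 genes. Of these 130 were on the array under their symbol and 71 were bright enough to be tested. In the same fit 26 rose, 5 fell and 40 were not called, with a median difference of 0.14. Over all tested genes 22.0% rose and 17.6% fell. The counts of each list in the paragraphs that follow are also to be read against these shares. The 31 called genes became 19 when control replicate 1 was left out and 17 when control replicate 2 was. With the replicate block 32 were called. Btk (adjusted p = 0.057), Ptpn6 (0.0532) and Tgfb1 (0.087), counted here among the genes that rose, lost their call, and Gab1 (0.029), Lmo2 (0.0198), Tcf12 (0.0409) and Glce (0.0314) gained one. Of the 31 called genes 3 passed the brightness filter only through the group in which they are high and so had to differ, Ccl2 and Ccl5 through the mutants and Itga2b through the controls. Many of these genes are expressed by other cells of the nerve too.

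**Figure D4:**
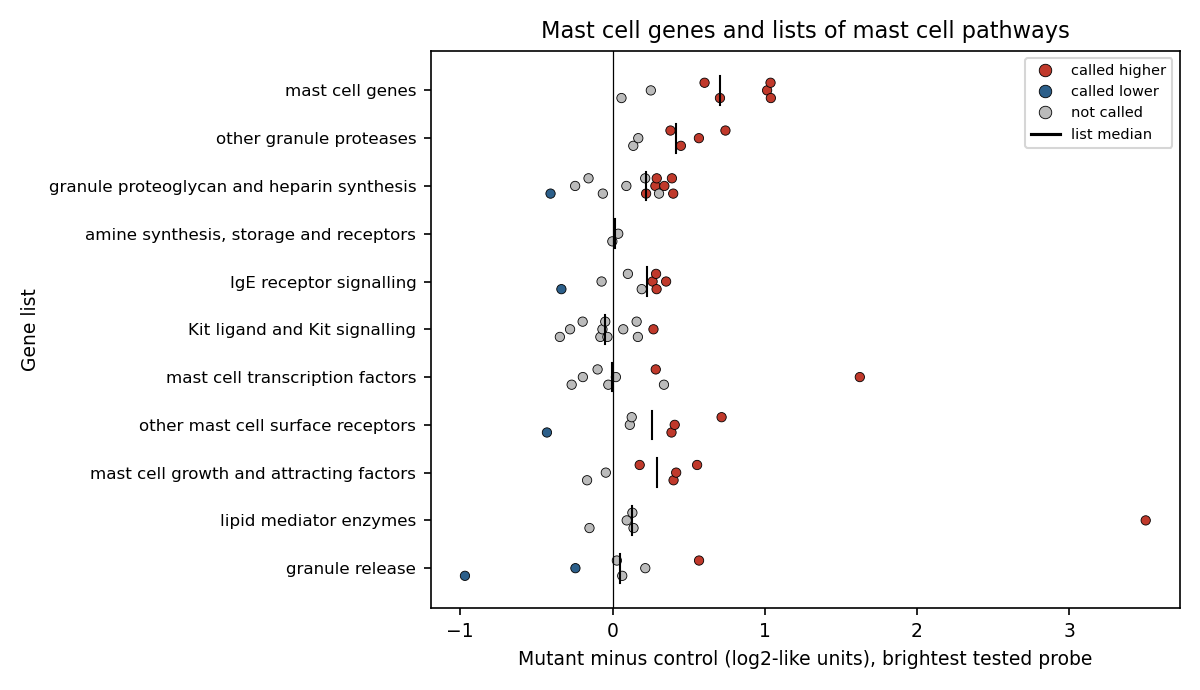
Mutant minus control difference (log2-like units) of the brightest tested probe of each gene, for the mast cell genes and 10 lists of mast cell pathways. Red points were called higher, blue points lower and grey points not called, and a black bar marks each list's median, which is 0.71 for the mast cell genes and from -0.05 to 0.41 for the other lists.

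Of 6 tested genes of other granule proteases, 4 rose and 0 fell, with a median of 0.41. After Cma2 they were Ctsb, a lysosomal protease, by 0.57 (SE 0.096), Dpp4, a surface dipeptidase, by 0.45 (SE 0.078) and Ctsc, which activates chymases and tryptases, by 0.38 (SE 0.067). Ctsg and the mucosal chymases Mcpt1 and Mcpt2 were too dim to be tested, with group means from 8.07 to 8.37. Of 13 genes of the granule proteoglycan and heparin synthesis, 6 rose and 1 fell, with a median of 0.22 and between 2 and 7 higher over the alternatives. The member that fell was Srgn, whose product serglycin is the core protein that binds the proteases in the granule. It read 9.80 to 9.81 in controls and 9.18 to 9.53 in mutants, a difference of -0.41 (SE 0.096, limma adjusted p = 0.0174). That call was lost without any single control (0.0566 to 0.0616) and without moderation (0.0667), and a second Srgn probe also fell, by 0.59 (adjusted p = 0.0113). Ext1, of the polymerase that builds heparan chains, rose by 0.39 (SE 0.069). Vcan, a matrix proteoglycan, rose by 0.40, but that call was lost under 7 of 13 alternatives, among them each array left out except mutant replicate 3 (0.0519 to 0.125). Ndst2, the sulfotransferase needed for mast cell heparin, was not called, with a difference of 0.21 (adjusted p = 0.0543, and 0.0484 without mutant replicate 1).

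Of 10 genes of amine storage and handling on the array, 2 were tested and neither was called. The brighter was Maob, which breaks down amines, at 0.04 (SE 0.055). Slc18a2, the transporter that loads histamine into granules, read 8.24 in controls and 8.26 in mutants and was not tested. Among all tested genes 22.0% rose, and of 5 tested lipid mediator enzymes 1 did. This was Alox5, the 5-lipoxygenase of leukotriene synthesis, which rose by 3.50 (SE 0.069, limma adjusted p = 2.42e-06). The genes of its partners in that pathway were not called, Ltc4s at -0.15 and Alox5ap at 0.09 (adjusted p = 0.789, and 0.0055 without mutant replicate 1), and neither was Hpgds, the prostaglandin D2 synthase of mast cells, at 0.14.

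Of 8 tested genes of IgE receptor signalling 4 rose and 1 fell, with a median of 0.23, and between 1 and 5 were higher over the alternatives. Among all tested genes 22.0% rose and 17.6% fell. Of the 4 that rose, Btk lost its call under 9 of 11 alternatives (limma adjusted p from 0.0508 to 0.152). Ptpn6 lost its call under 8 of 13 (0.0532 to 0.102). Vav1, an exchange factor of blood cells, rose by 0.35 (SE 0.064), and Fyn, a kinase downstream of the receptor, fell by 0.34 (SE 0.077). The Fyn call was lost without mutant replicate 2 (0.0552), without control replicate 3 (0.0586) and without moderation (0.0514). Lat2, an adaptor, rose by 0.29 (limma adjusted p = 0.0336), a call lost under 7 of 13 alternatives, among them each array left out except mutant replicate 1 (0.076 to 0.112). A dimmer Lat2 probe was not called (0.09, adjusted p = 0.34). Of 11 tested genes of the Kit ligand and Kit signalling 1 rose and 0 fell, with 0 to 1 higher and 0 to 3 lower over the alternatives. The gene that rose was Shc1, an adaptor, by 0.27 (SE 0.064), a call lost without control replicate 2 (0.0521) and with a variance trend (0.0699). Without mutant replicate 1, Pik3r1 (0.0323), Jak2 (0.0129) and Gab1 (0.0036) were called lower. The ligand gene Kitl had 3 probes, of which the 1 tested read 8.52 in controls and 8.59 in mutants and was not called (difference 0.07, adjusted p = 0.613).

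Of 8 tested transcription factor genes 2 rose and 0 fell, with a median close to 0, where 22.0% of all tested genes rose. Meis2 rose by 1.62 (SE 0.089) and Ikzf1, a factor of blood cells, by 0.28 (SE 0.059), while a dimmer Ikzf1 probe was not called (0.10, adjusted p = 0.175). Gata2, which mast cells require, was not called, at 8.84 in controls and 8.75 in mutants, and Mitf and Gata1 were too dim to be tested. Of 6 tested genes of other surface receptors 3 rose and 1 fell, and between 1 and 6 were higher over the alternatives. Mrgprb2, the mast cell receptor for basic secretagogues, rose from 8.44, 8.50 and 8.50 in the controls to 8.97, 8.79 and 8.91 in the mutants. Its difference was 0.41 (SE 0.062, limma adjusted p = 0.0029), and the call was kept under the 12 alternatives in which it was tested. With the filter at the 75th percentile of all values, 8.86, Mrgprb2 was tested only through the mutant arrays. Cd63, a granule membrane protein found in most cells, rose by 0.72 (adjusted p = 0.0223), a call lost under 7 of 13 alternatives, among them each array left out except mutant replicate 1 (0.0558 to 0.0755). Its 2 dimmer probes were not called. Itga2b, an integrin of platelets that mast cells also carry, fell by 0.43 (SE 0.059) to a mutant mean of 8.31, under the filter's edge of 8.34. It was tested only through the control arrays, so its fall is a description only.

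Of 6 tested growth and attracting factors 4 rose and 0 fell, and between 1 and 4 were higher over the alternatives. Il33, an alarmin that acts on mast cells, read 10.79 ± 0.017 in controls against 11.35 ± 0.22 in mutants (SD, n = 3 each) and rose by 0.56 (SE 0.107, limma adjusted p = 0.00792). The chemokine genes Ccl5 and Ccl2 rose by 0.42 (SE 0.086) and 0.40 (SE 0.063), both from control means under the filter's edge of 8.34, so their rise is a description only. Of 6 tested genes of granule release 1 rose and 2 fell. Snap23, a fusion protein of the plasma membrane, rose by 0.57 (SE 0.071) and its partner Stx4a fell by 0.24 (SE 0.052). Vamp8, the granule partner of both, fell by 0.97 (SE 0.274, limma adjusted p = 0.0333), a call lost with all probes tested (0.0971), without moderation (0.121) and without control replicate 1, 2 or 3 (0.0741 to 0.112).

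Markers of other cells that carry some of these genes were read beside them. Over all tested genes 22.0% rose and 17.6% fell, and the counts of each list are to be read against those shares. The basophil genes Mcpt8 and Prss34 read 8.10 to 8.33 in group means and were not tested, and of 3 tested genes of that list 1 rose, Il3ra by 0.39, a call lost under 6 of 13 alternatives (0.0505 to 0.0754). The mean level of the 7 basophil genes was 8.40 to 8.43 in controls and 8.46 to 8.54 in mutants. Of 10 neutrophil genes 2 were tested and 1, Retnlg, rose by 0.83, a call lost under 7 of 12 alternatives (0.0569 to 0.105), while Csf3r was not called. The control mean of Retnlg, 8.20, was under the filter's edge, so it was tested only through the mutant arrays. S100a8 and S100a9 read 8.22 to 8.28. The mean level of the neutrophil list was 8.20 to 8.25 in controls and 8.24 to 8.35 in mutants. Retnlg is 1 of the 10 genes in that mean. Of 7 eosinophil genes 1 was tested and was not called, Il5ra at -0.06, and Ear6 read 8.18 and 8.19. Of 7 T and B cell genes 0 were bright enough, with Cd79b and Cd3e the brightest at 8.23 to 8.39. The mean level of the eosinophil list was 8.15 to 8.17 in controls and 8.14 to 8.17 in mutants. For the T and B cell list it was 8.21 to 8.22 in controls and 8.25 to 8.29 in mutants. Of 13 tested macrophage genes 3 rose and 2 fell, with a median of 0.08. The brightest were Laptm5, which rose by 0.51, and Lyz2, which was not called. Mpeg1, which forms pores in engulfed microbes, rose by 1.19 (limma adjusted p = 7.36e-04), and the chemokine receptor gene Cx3cr1 rose by 0.77. Cd163, the haemoglobin scavenger receptor, fell by 0.76 (limma adjusted p = 2.33e-04) and Cd14 by 0.26, the latter a call lost without control replicate 1 (0.0757) or 2 (0.0726). With the replicate block Adgre1 gained a call (0.0359). The mean level of that list was 10.21 to 10.33 in controls and 10.33 to 10.46 in mutants.

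The counts that follow are likewise to be read against the 22.0% of all tested genes that rose and the 17.6% that fell. Melanocytes, which also depend on Kit, were read by 7 genes. Dct rose by 1.51, Pmel fell by 0.74 to a mutant mean under the filter's edge, 8.28, and Tyr and Mlana read 8.08 to 8.20. Pmel was tested only through the control arrays, so its fall is a description only. The mean level of the melanocyte list was 8.39 to 8.45 in controls and 8.45 to 8.49 in mutants, and the groups overlapped. Of 10 genes of fibroblasts and perineurial cells, among which mast cells lie, 3 rose and 1 fell, with a median of 0.30. Lum, a matrix proteoglycan, rose by 0.99 (SE 0.163), and Dcn was not called, at 0.14. The mean level of that list was 12.95 to 13.14 in controls and 13.23 to 13.53 in mutants. Of 7 tested endothelial genes 2 fell and 0 rose, Vwf by 0.55, a call lost under 5 of 13 alternatives (0.0505 to 0.0864), while Esam was not called and Pecam1 gained a call with the replicate block (0.0313). Among 6 tested Schwann cell genes 2 rose and 2 fell. Ngfr, the neurotrophin receptor gene, rose by 3.42 and Sox10 was not called, at 13.94 in controls and 13.98 in mutants. The mean level of the Schwann cell list was 10.18 to 10.31 in controls and 10.32 to 10.34 in mutants. The part of these other cells, and of the connective tissue taken with each nerve, in the rise of the protease genes was not tested.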

How the data were processed

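RNA of 3 mutant and 3 control nerve samples was read on 1 bead array each. Per the labels, which here means the design text, the authors normalized by RMA and worked in limma, and the submitters' processing notes name lumi 1.8.3. The authors' log2-like values run from 7.96 to 15.91. Plain log2 and lumi's variance-stabilising transform cannot be told apart from the sources used here, and background correction is not given there.

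The design text states a filter that kept 18420 of 45281 probes. The same number of probes, 18420, taken in order of their mean over the 6 arrays, was tested here, and the other 26861 were left out. Probes were named from the platform annotation, in which 34885 probes carry 1 gene symbol, 18 carry several and 10378 none. Gene identifiers of 34807 probes matched the RefSeq table of GRCm38.p6, with 0 changes of symbol. limma 3.58.1 in R 4.3.3 compared mutant with control arrays (lmFit and eBayes, 2-sided, 4 residual and 2.63 prior degrees of freedom), with Benjamini-Hochberg adjustment over the 18420 probes. Calls were made where the adjusted p was under 0.05. A gene was represented by its brightest tested probe. The number of arrays limits the precision. The steps were tested on simulated data with independent errors of equal spread in both groups. That simulation does not cover the wider spread of the mutant arrays.

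Samples with the same replicate number in the labels were checked for pairing. Their deviations from the group means correlated at 0.165, 0.155 and 0.224 over the tested probes. Mutant and control samples with different numbers correlated at -0.157 to 0.028. A fit with the number as a block is therefore given where it changes a call. The labels do not say what the numbers share.

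The alternatives were all probes, the 12000 brightest, probes with a higher group mean above the 75th percentile of all values, a mean trend or robust variances in eBayes, no moderation, the replicate block, and each array left out. The genes, lists and tests were chosen with earlier results of these data known. The named genes are every probe of the mast cell genes, up to 3 called genes with the largest difference per pathway list (or its brightest tested gene), the 2 brightest genes of each list of another cell type, and the 5 genes most like Cpa3 by each of 2 measures. Others were chosen after their values were seen.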

Additional observations from a re-analysis of the deposited data

How the results depend on the processing

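Each of the 10 tested mast cell gene probes was refitted under 13 alternatives. No difference changed its direction, and of the 130 values 121 stayed on the same side of the threshold and 9 lost their call, 8 for Tpsab1 and 1 for the brighter Cma1 probe. The number of called probes, 8, was 6 without moderation of the variances and 7 to 8 with an array left out. The number of called genes, 5, was 3 without moderation, 4 with the replicate block or with all probes tested, and 4 to 5 with an array left out, and it was 5 by any probe of a gene or by the mean of its tested probes. The 4 probes called at least 2-fold were 2 without moderation, 3 with the replicate block and 1 to 4 with an array left out. They lie close to that threshold, with differences from 1.02 to 1.05. The 31 called pathway genes were 17 to 37, and the 6596 called probes of the array 4598 to 7502, with an array left out. With the replicate block Tpsab1 lost its call (adjusted p = 0.0624), and no other mast cell gene probe changed its call. The low signal of 7 probes limits what can be said of Ms4a2 and Fcer1a, and the exact permutation test cannot go below 0.10.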
